A study of Rattus norvegicus with 16 samples.

Results

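The genes described here are 10 members of the heat shock family, the chaperones and co-chaperones Hspb1, Hspb8, Cryab, Hspa1a, Hsph1, Hspa4, Dnajb1, Dnaja1, Bag3 and Chordc1. The 10 were chosen with earlier results of these data known. Probe sets were taken by symbol, as every one on the array whose only gene symbol is 1 of the 10. This took 14 of 31099 probe sets and 10 of the 14218 genes that could be tested. Hspb8, Dnajb1, Dnaja1 and Hsph1 each had 2 probe sets, which were averaged, and the other 6 genes had 1.

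RNA came from the lateral cortex of male Wistar rats aged 8 weeks, on 16 Affymetrix arrays. All animals, shams included, had received a craniectomy over the right parietal cortex 48 h before the procedure. Injured animals then received a moderate lateral fluid percussion, a pulse of saline against the dura that bruises the cortex beneath, and were sampled after 3, 6, 12 or 48 h (3 arrays at each time). Sham animals were sampled at the same times (1 array at each time), and the study's design text sets the injured 3, 6 and 12 h arrays against the shams of 3, 6 and 12 h together (3 arrays, the early shams) and the injured 48 h arrays against the 48 h sham alone.

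Heat shock proteins bind unfolded polypeptides, and cells make more of them when proteins are damaged. The small heat shock proteins hold unfolded chains, HSP70 refolds them with the help of J domain proteins and exchange factors, and BAG3 passes what cannot be refolded to autophagy. Transcription of many of these genes is driven by heat shock factor 1, which binds repeats of GAA and TTC in their promoters, the heat shock elements. In brain, HSPB1 and HSPA1A are known as proteins that astrocytes, neurons and vessels make after ischaemia or trauma.

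The promoters of 9 of the 10 genes were found in RefSeq's rat table (build GRCr8, 250 bases before to 50 bases after the transcript start that the table uses), and 5 are shown as examples of the repeats. That start is the edge of the gene's span for 6 of the 9, while it lies inside the span by 1409 bases for Hspb8, 100 for Chordc1 and 2159 for Hspa4. The repeats searched, on both strands, were the 2-unit forms GAANNTTC and TTCNNGAA and the 3-unit forms GAANNTTCNNGAA and TTCNNGAANNTTC, and every 3-unit match also holds overlapping 2-unit matches. Capitals mark the 2-unit matches in Hspb1 (chr12:26432252-26432551, minus strand), Bag3 (chr1:192533210-192533509, plus strand) and Hspb8 (chr12:45837058-45837357, plus strand), and the 3-unit matches in Hsph1 (chr12:10427118-10427417, plus strand) and Chordc1 (chr8:23650571-23650870, plus strand).
Hspb1: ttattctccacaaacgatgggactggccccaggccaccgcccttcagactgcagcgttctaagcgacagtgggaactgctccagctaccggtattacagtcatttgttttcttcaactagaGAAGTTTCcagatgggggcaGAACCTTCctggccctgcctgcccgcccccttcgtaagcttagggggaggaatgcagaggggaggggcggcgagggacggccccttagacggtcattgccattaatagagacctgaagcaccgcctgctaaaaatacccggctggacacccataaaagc
Bag3: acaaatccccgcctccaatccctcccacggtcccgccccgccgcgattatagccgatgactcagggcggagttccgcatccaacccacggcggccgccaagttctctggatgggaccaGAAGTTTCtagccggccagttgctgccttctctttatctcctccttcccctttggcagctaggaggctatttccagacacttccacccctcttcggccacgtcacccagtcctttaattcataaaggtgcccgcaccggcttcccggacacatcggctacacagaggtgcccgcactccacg
Hspb8: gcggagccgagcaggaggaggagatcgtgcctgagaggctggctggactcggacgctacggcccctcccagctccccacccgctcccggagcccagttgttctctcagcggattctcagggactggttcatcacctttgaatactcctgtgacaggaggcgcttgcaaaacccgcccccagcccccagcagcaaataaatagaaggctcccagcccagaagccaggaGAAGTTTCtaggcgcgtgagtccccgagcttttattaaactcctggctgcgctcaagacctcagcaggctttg
Hsph1: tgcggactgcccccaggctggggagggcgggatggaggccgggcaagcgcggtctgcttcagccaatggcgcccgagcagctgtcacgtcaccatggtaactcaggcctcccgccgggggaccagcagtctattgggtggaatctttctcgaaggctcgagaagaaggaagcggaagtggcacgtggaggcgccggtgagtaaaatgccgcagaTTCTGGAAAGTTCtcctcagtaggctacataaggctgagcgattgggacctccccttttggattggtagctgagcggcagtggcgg
Chordc1: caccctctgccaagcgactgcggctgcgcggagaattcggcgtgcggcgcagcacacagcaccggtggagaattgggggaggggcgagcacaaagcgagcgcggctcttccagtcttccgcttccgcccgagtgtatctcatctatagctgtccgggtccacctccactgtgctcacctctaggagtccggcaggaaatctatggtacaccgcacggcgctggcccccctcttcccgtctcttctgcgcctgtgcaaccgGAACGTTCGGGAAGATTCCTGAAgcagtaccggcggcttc

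A 2-unit repeat was found in 7 of the 9 promoters and in 15.9% of the 33469 promoters of the table. A 3-unit repeat was found in Dnaja1, Hsph1 and Chordc1, 3 of the 9, and in 0.798% of all promoters. Hspb1, Bag3 and Hspb8 held the same letters, GAAGTTTC, at positions -129, -132 and -23 from the table's start (for Hspb8 this is inside the gene's span), a run that 1.39% of all promoters hold and that was picked out after the promoters had been read. Dnajb1 held 2 of the 2-unit matches, at -11 and at 18. Its promoter and that of Dnaja1 are not among those shown, although they carry the same forms of the repeat. The promoters shown for the 2-unit form are those of the 3 genes called at 12 h below. Whether the form of the repeat goes with the response was not tested. In the windows of Hspa1a and Hspa4 no repeat was found. Only 300 bases around 1 start were searched for each, so this does not show that either gene lacks a heat shock element. Among 90 other chaperone genes with a promoter in the table, 18 held a 2-unit repeat and 5 (5.56%) a 3-unit repeat. A match is a description of the letters and not a measured binding site.

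The values are log intensities from the robust multi-array average (RMA), taken as log2. The median of each probe set over the 16 arrays was already subtracted in the deposited values. A value of 0 is therefore the middle array for that gene, differences between arrays can be read, and neither the level of a gene nor whether it is detected can be read. For the same reason the neuronal, glial and other marker genes could not be used to check the tissue by their level. Differences below are injured minus the 3 early shams unless another control is named, with the standard error (SE) of a limma model of all 16 arrays, and a gene was called at a Benjamini-Hochberg adjusted p under 0.05 over 14218 genes. The labels give each array its own number and nothing on shared animals or shared days of processing, so p-values measure the spread between arrays. In bulk tissue, fewer cells of a type and less RNA per cell cannot be told apart.

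One array of the 12 h group stands apart. In injured 12 h replicate 2 the polyA spike-in controls averaged -1.69 on the centred log2 scale (24 probe sets), against -0.18 to 0.50 in the other 15 arrays, while its hybridization controls averaged -0.09. Its weight from limma's array weights, which measure how well an array fits its group, was the lowest of the 16 at 0.35. The standard deviation (SD) over genes was 0.372 in this array and 0.387 in injured 48 h replicate 2, the 2 widest of the 16. The 2 most alike arrays still differed by 0.202 (root mean square over genes), so none was a copy of another.

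**Figure D1:**
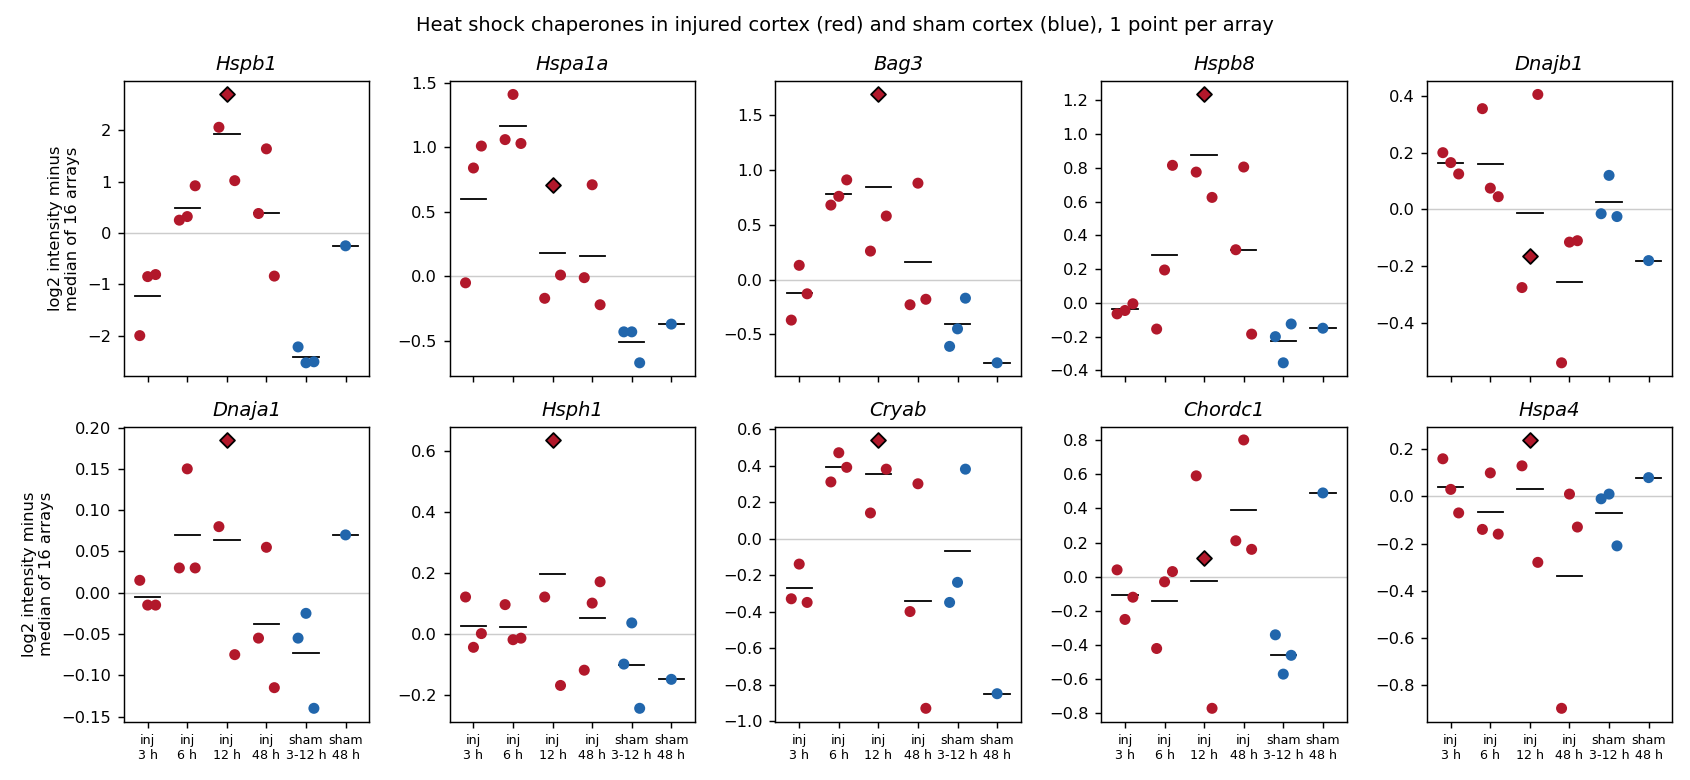
The 10 genes in each of the 16 arrays (y axis, centred log2 intensity; red points injured, blue points sham, black bars group means, n = 3 except 1 for the 48 h sham). The diamond is injured 12 h replicate 2, which is the highest 12 h array for 8 of the 10 genes. Each panel has its own y axis, and Hspb1 spans from -2.53 in the 6 h sham to 2.70 in that array.

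The small heat shock protein Hspb1 (chr12:26430640-26432301, GRCr8), which keeps unfolded chains soluble and binds actin, had the widest response of the 10. Its centred log2 values were -2.00, -0.85 and -0.81 in injured 3 h cortex, 0.25, 0.32 and 0.92 at 6 h, 2.06, 2.70 and 1.02 at 12 h, and 0.38, 1.64 and -0.84 at 48 h, against -2.22, -2.53 and -2.51 in the 3, 6 and 12 h shams and -0.25 in the 48 h sham. All 12 injured arrays lay above all 3 early shams. Hspb1 rose by 2.92 ± 0.53 at 6 h (log2 ± SE, n = 3 each, limma, adjusted p = 0.0083) and by 4.35 ± 0.53 at 12 h, a 20.3-fold difference (adjusted p = 0.000369). At 3 h the difference was 1.20 ± 0.53 and was not called (adjusted p = 0.501). Without injured 12 h replicate 2 the 12 h difference was 3.96 (adjusted p = 0.00222), and over each array left out in turn it stayed between 3.96 and 4.80 and called.

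At 48 h the difference of Hspb1 depended on the sham. Against the early shams it was higher by 2.81 ± 0.53 (adjusted p = 0.00606), and against the 48 h sham by 0.64 ± 0.75 (adjusted p = 0.90), with a 95% interval of -0.97 to 2.26. The 48 h sham itself was 2.17 ± 0.75 above the early shams, which was not called (adjusted p = 0.596, n = 1 against 3). The 3 injured 48 h arrays spread over 2.48, with replicate 3 below the 48 h sham and replicate 2 the third highest of all 16 arrays.

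Hspb8 (chr12:45835899-45866449), the small heat shock protein that partners BAG3, followed Hspb1 at a smaller size. Its values were -0.07, -0.05 and -0.01 in injured 3 h cortex, -0.16, 0.20 and 0.82 at 6 h, 0.78, 1.24 and 0.63 at 12 h, and 0.32, 0.81 and -0.19 at 48 h, against -0.20, -0.36 and -0.13 in the early shams and -0.15 in the 48 h sham. All 12 h arrays lay above every sham, while at 6 h and at 48 h 1 injured array lay among the early shams. It rose by 1.10 ± 0.25 at 12 h (2.15-fold, limma, adjusted p = 0.0206). Both probe sets moved alike over the 16 arrays (Pearson r = 0.934). Without injured 12 h replicate 2 the 12 h difference was 0.93 and no longer called (adjusted p = 0.10), and the call was also lost without the 3 h sham (1.12, adjusted p = 0.0609) or without the 6 h sham (1.04, adjusted p = 0.0856).

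Cryab (chr8:59989885-59995532), alpha-B-crystallin, a small heat shock protein abundant in glia, was not called in any comparison of this model. Its values were -0.33, -0.14 and -0.35 in injured 3 h cortex, 0.31, 0.47 and 0.39 at 6 h, 0.14, 0.54 and 0.38 at 12 h, and -0.40, 0.30 and -0.93 at 48 h, against -0.35, -0.24 and 0.38 in the early shams and -0.85 in the 48 h sham. The 12 h sham reached the level of the injured 6 and 12 h arrays, so the groups overlap at those times. The injured 3 h and 48 h arrays also overlapped the early shams. Against the early shams the differences were 0.46 ± 0.25 at 6 h and 0.42 ± 0.25 at 12 h (adjusted p = 0.433 and 0.364).

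The stress-inducible HSP70 gene Hspa1a (chr20:3859756-3863800), which refolds damaged proteins, had its highest group mean at 6 h. Its values were -0.05, 0.84 and 1.01 in injured 3 h cortex, 1.06, 1.41 and 1.03 at 6 h, -0.17, 0.71 and 0.01 at 12 h, and -0.01, 0.71 and -0.22 at 48 h, against -0.43, -0.43 and -0.67 in the early shams and -0.37 in the 48 h sham. All 12 injured arrays lay above all 4 shams, and the 3 arrays of 6 h were the 3 highest of the 16. It rose by 1.68 ± 0.29 at 6 h (3.20-fold, limma, adjusted p = 0.00619), and the call held without each array in turn (1.56 to 1.75). The differences of 1.11 ± 0.29 at 3 h (adjusted p = 0.152) and 0.69 ± 0.29 at 12 h (adjusted p = 0.196) were not called, and the second was 0.43 without injured 12 h replicate 2 (adjusted p = 0.595). At 3 h it was called without injured 3 h replicate 1, the array closest to the shams (70 of all genes called, 83 with all arrays), and with array weights (564 of all genes) or quantile normalization (178). Hspa1a and Hspa1b are near-identical copies, RefSeq lists Hspa1b as a synonym, and the signals of the pair cannot be told apart.

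The HSP110 proteins, which exchange the nucleotide on HSP70, moved little. Hsph1 (chr12:10427368-10446602) had values of 0.12, 0.64 and -0.17 in injured 12 h cortex, against -0.10, 0.04 and -0.25 in the early shams. Its other injured values were 0.12, -0.05 and 0.00 at 3 h, 0.10, -0.02 and -0.02 at 6 h, and -0.12, 0.10 and 0.17 at 48 h. The 48 h sham read -0.15. Only replicate 2 of the 12 h group stood above the rest, and the difference of 0.30 ± 0.16 (adjusted p = 0.306) was 0.08 without it (adjusted p = 0.839). Leaving out injured 12 h replicate 3, the low array, gave a call for Hsph1 at 12 h in its place. Hspa4 (chr10:37908866-37951994) differed by 0.11, 0.00 and 0.10 at 3, 6 and 12 h and by -0.27 ± 0.20 at 48 h against the early shams (adjusted p = 0.431). Its 48 h group held -0.90, 0.01 and -0.13, so 1 array made most of that difference. The other injured values of Hspa4 were 0.16, 0.03 and -0.07 at 3 h, -0.14, 0.10 and -0.16 at 6 h, and 0.13, 0.24 and -0.28 at 12 h. The early shams read -0.01, 0.01 and -0.21, and the 48 h sham 0.08.

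Bag3 (chr1:192533460-192557281), the co-chaperone that links HSP70 and HSPB8 to autophagy, was called at 12 h alone, and that call was lost without any of 4 arrays. Its values were -0.37, 0.13 and -0.13 in injured 3 h cortex, 0.68, 0.76 and 0.91 at 6 h, 0.26, 1.69 and 0.58 at 12 h, and -0.23, 0.88 and -0.18 at 48 h, against -0.61, -0.45 and -0.17 in the early shams and -0.76 in the 48 h sham. All injured 6 h and 12 h arrays lay above all shams, and the 6 h arrays were close together whereas replicate 2 stood far above the others at 12 h. At 12 h Bag3 rose by 1.25 ± 0.33 (2.38-fold, limma, adjusted p = 0.0443). Without replicate 2 this was 0.83 and not called (adjusted p = 0.165), a change of more than 1.5 times. The call was also lost without the sham of 3 h (1.15, adjusted p = 0.151), of 6 h (1.23, adjusted p = 0.132) or of 12 h (1.37, adjusted p = 0.0639), and with array weights (1.06, adjusted p = 0.0647). At 6 h the difference was 1.19 ± 0.33 and was not called (adjusted p = 0.0756). It was called once injured 12 h replicate 2 was left out of the model (adjusted p = 0.0137). That array is in neither group compared, so the difference itself was unchanged and only the model's estimate of spread moved. Over the arrays left out in turn, 177 to 630 of all genes were called at 6 h, against 379 with all arrays.

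The J domain proteins, which deliver clients to HSP70 and start its ATP cycle, were not called at any time. Dnajb1 (chr19:41427453-41431141) had values of 0.20, 0.17 and 0.13 in injured 3 h cortex and -0.54, -0.12 and -0.11 at 48 h, against -0.02, 0.12 and -0.03 in the early shams. At 6 h it read 0.36, 0.08 and 0.05. At 12 h it read -0.28, -0.17 and 0.41, a range of 0.68 and the widest of its groups. The 48 h sham read -0.18. The 3 h arrays lay above and the 48 h arrays below all early shams, at differences of 0.14 ± 0.16 and -0.28 ± 0.16 (adjusted p = 0.874 and 0.297). Dnaja1 (chr5:60638404-60649315) stayed between -0.14 and 0.19 in all 16 arrays, the narrowest of the 10, and differed by 0.14 ± 0.08 at 6 h and 0.14 ± 0.08 at 12 h (adjusted p = 0.433 and 0.345). Both carry heat shock repeats in the promoter, as Hsph1 does above.

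Chordc1 (chr8:23650721-23674786), a co-chaperone of HSP90 whose promoter holds 3 overlapping 3-unit repeats, had its highest injured group at 48 h. Its values were 0.04, -0.25 and -0.12 in injured 3 h cortex, -0.42, -0.03 and 0.03 at 6 h, 0.59, 0.11 and -0.77 at 12 h, and 0.21, 0.80 and 0.16 at 48 h, against -0.34, -0.57 and -0.46 in the early shams and 0.49 in the 48 h sham. The 48 h arrays lay above all early shams and around the 48 h sham. The difference was 0.85 ± 0.27 against the early shams (adjusted p = 0.0602) and -0.10 ± 0.38 against the 48 h sham (adjusted p = 0.977). It was called against the early shams without injured 48 h replicate 3 (2054 of all genes called, 1377 with all arrays), with array weights (2406), and with only those arrays in the model (585).

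**Figure D2:**
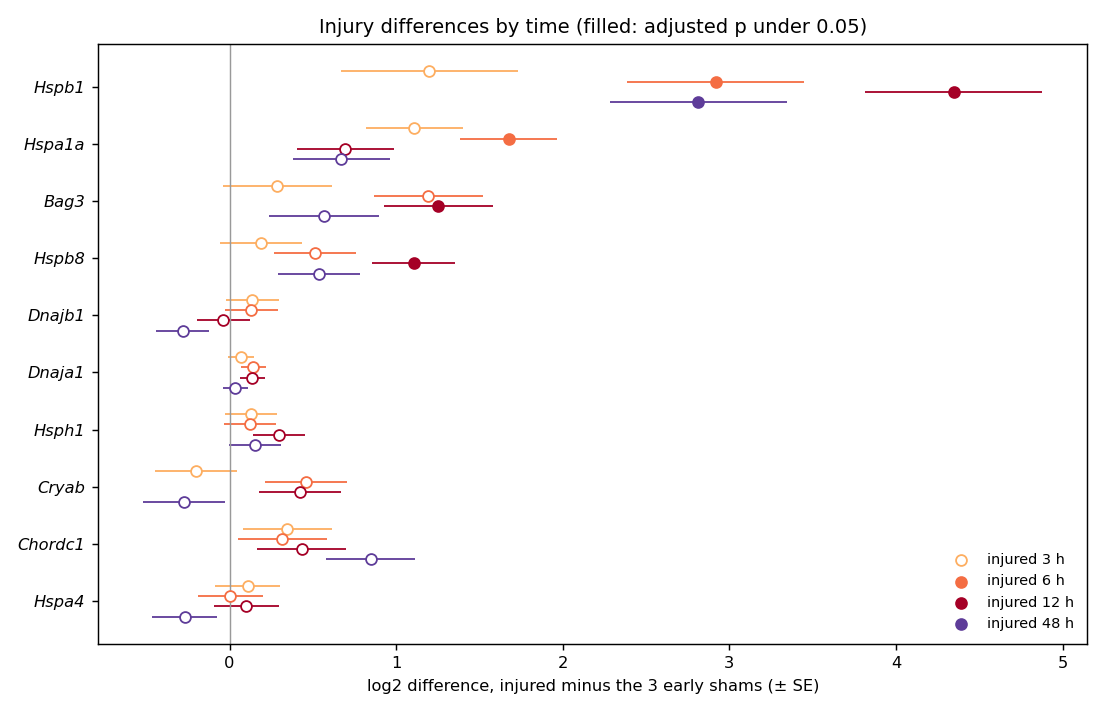
Difference of each gene between injured cortex at 3, 6, 12 and 48 h and the 3 early shams (x axis, log2; points with SE bars, n = 3 each, filled where the adjusted p is under 0.05). Hspb1 reached 4.35 at 12 h and Hspa1a 1.68 at 6 h, while Dnaja1, Dnajb1, Hsph1 and Hspa4 stayed within 0.30 of 0.

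The 10 genes were chosen with earlier results of these data known, so their counts and medians beside all genes are descriptions and not a test. Counted over the 10 genes, 0 were called at 3 h (2 at an unadjusted p under 0.05, Hspb1 and Hspa1a), where 0.584% of all genes were called. The median difference was 0.16, against -0.01 over all genes. In 6 of the 10 all injured arrays lay above all early shams (Hspb1, Hspa1a, Hspb8, Dnajb1, Dnaja1 and Chordc1), where 17.8% of all genes had groups that do not overlap in either direction. For Dnajb1, Dnaja1 and Hspb8 this was a separation of less than 0.20 between group means.

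At 6 h 2 of the 10 were called, Hspb1 and Hspa1a, both higher, where 2.67% of all genes were called. The median difference was 0.39, against -0.02 over all genes. Groups did not overlap for Hspb1, Hspa1a, Bag3 and Dnaja1, 4 of the 10, against 23.7% of all genes.

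At 12 h 3 of the 10 were called, Hspb1, Bag3 and Hspb8, all higher, where 4.87% of all genes were called. The median difference was 0.43, against -0.02 over all genes. Groups did not overlap for these 3 and Hspa1a, 4 of the 10, against 21.5% of all genes. Without injured 12 h replicate 2, without the 3 h sham or without the 6 h sham only Hspb1 was called, and 324, 403 and 287 of all genes in place of 692. Without injured 12 h replicate 3, the lowest 12 h array for 6 of the 10, 5 were called, these 3 with Hsph1 and Chordc1, and 1230 of all genes. With the 12 h sham alone as the control, only Hspb1 was called, and 77 of all genes.

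Injured 12 h replicate 2 was the highest of its group for 8 of the 10 genes (80%), all but Dnajb1 and Chordc1, and for 36.96% of all genes. It was the lowest for none of the 10 and for 34.93% of all genes. Its median gap to the mean of the other 2 arrays was 0.43 over the 10 genes, against 0.005 over all genes, and the widest gaps were 1.27 for Bag3 and 1.16 for Hspb1. Injured 48 h replicate 2, whose polyA controls averaged -0.02, was likewise the highest of its group for 8 of the 10 (80%) and for 29.72% of all genes. The part of the spike-in reading in these values was not tested.

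**Figure D3:**
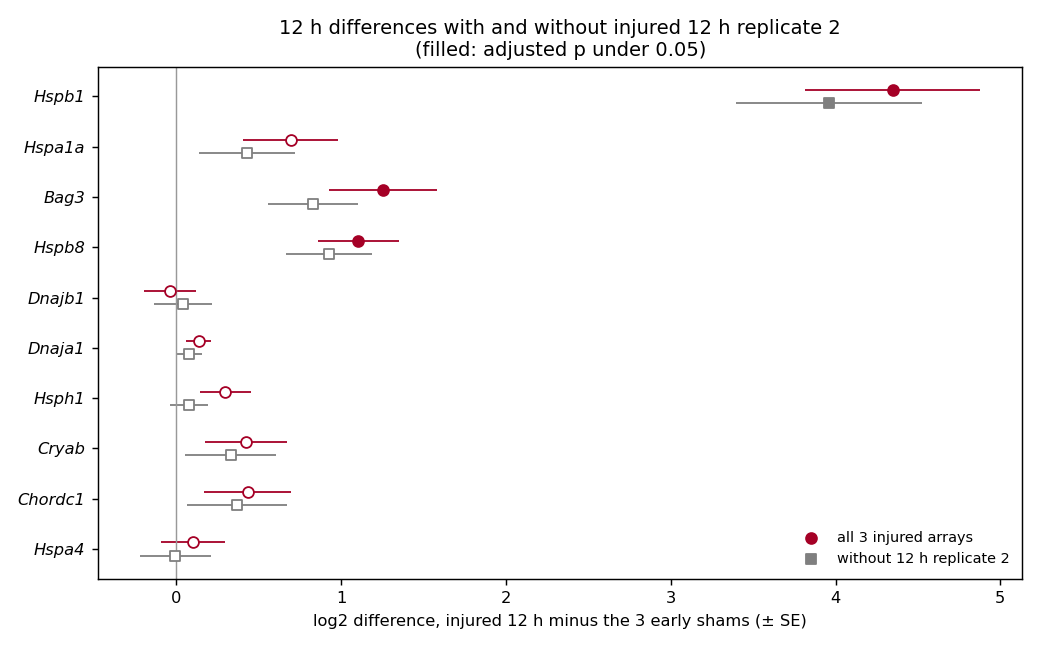
Difference of each gene between injured 12 h cortex and the 3 early shams with all 3 injured arrays (red circles) and without replicate 2 (grey squares), on the log2 scale with SE bars, filled where the adjusted p is under 0.05. Bag3 lies at 1.25 and 0.83 and Hspb8 at 1.10 and 0.93, and only Hspb1 (4.35 and 3.96) is filled in both.

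At 48 h against the 48 h sham 0 of the 10 were called by limma, none at an unadjusted p under 0.05, and 0% of all genes were called. The differences ran from -0.42 for Hspa4 to 0.92 ± 0.46 for Bag3 (adjusted p = 0.704). These values rest on single arrays, since Bag3 stood at 0.56 without injured 48 h replicate 2 and Hspa4 at -0.14 without replicate 1, and Hspb1 ran from 0.02 without replicate 2 to 1.26 without replicate 3. Against the early shams 1 of the 10 was called, Hspb1, where 9.68% of all genes were called. Groups did not overlap for Hspb1, Hspa1a and Chordc1 (above) and Dnajb1 (below), against 29.5% of all genes. Between the 48 h sham and the early shams 0 of the 10 were called (3 at an unadjusted p under 0.05: Hspb1, Chordc1 at 0.95 ± 0.38 and Cryab at -0.78 ± 0.35), where 0.00703% of all genes were called.

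The steps between times, which use no sham, called none of the 10 by limma. The step at 6 h from 3 h was widest for Hspb1 (1.72 ± 0.53, adjusted p = 0.144), Bag3 (0.91 ± 0.33, adjusted p = 0.213) and Cryab (0.66 ± 0.25, adjusted p = 0.224), the 3 genes at an unadjusted p under 0.05, where 1.20% of all genes were called. At 12 h, relative to 6 h, Hspa1a differed by -0.98 ± 0.29 (adjusted p = 0.376) while Hspb1 differed by 1.43 ± 0.53 (adjusted p = 0.47) and Hspb8 by 0.59 ± 0.25 (adjusted p = 0.533), and 0.0141% of all genes were called. At 48 h, relative to 12 h, Hspb1 differed by -1.53 ± 0.53 (adjusted p = 0.0676), Cryab by -0.70 ± 0.25 (adjusted p = 0.0724) and Hspb8 by -0.57 ± 0.25 (adjusted p = 0.142), where 15.3% of all genes were called. Without injured 48 h replicate 2 this step called Hspb1, Bag3 and Cryab (1351 of all genes called, 2180 with all arrays), and without injured 12 h replicate 3 it called Hspb1 (1861). Setting the injury effect at 48 h, against its own sham, beside that at 12 h gave -3.70 ± 0.92 for Hspb1 (adjusted p = 0.146), called without injured 48 h replicate 2 (68 of all genes, 29 with all arrays), and 0.204% of all genes were called.

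Other chaperone genes were described through 10 lists that hold 98 measured genes. At 3 h none of the 98 was called, where 0.584% of all genes were called. At 6 h Hspa14, an HSP70 of the ribosome-associated complex, rose by 0.49 ± 0.11 (adjusted p = 0.0363). It was the only call among the 98, where 2.67% of all genes were called. At 12 h Hspa14 rose by 0.47 ± 0.11 (adjusted p = 0.0301) and Hsf1, the gene of heat shock factor 1, by 0.46 ± 0.12 (adjusted p = 0.0467). They were the only calls among the 98 at that time, where 4.87% of all genes were called. Without injured 12 h replicate 2 neither was called (0.47, adjusted p = 0.0956, and 0.31, adjusted p = 0.19). Hsf1 read 0.21, 0.51 and -0.06 in injured 12 h cortex, against -0.09, -0.24 and -0.38 in the early shams. It also lay above all early shams at 3 h (0.33 ± 0.12, adjusted p = 0.381) and at 48 h (0.31 ± 0.12, adjusted p = 0.13), not called. At 6 h it differed by 0.13 ± 0.12 with overlapping groups (adjusted p = 0.69), and the 48 h sham read 0.05.

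The other small heat shock proteins had a median difference of -0.05 at 12 h (6 genes, 0 called, highest 0.01), the other J domain proteins 0.02 (19 genes, 0 called), and the HSP90 chaperones and their co-chaperones 0.00 (14 genes, 0 called). The chaperonin TRiC with prefoldin had 0.12 (13 genes, 0 called) and the other regulators of HSP70 0.08 (11 genes, 0 called). No probe set names Hspa8 or Hsp90aa1 alone, so the constitutive HSP70 and the inducible HSP90 were not analysed here.

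The endoplasmic reticulum chaperones, which fold secreted proteins, were the list with most calls at 48 h against the early shams, 8 of 14 genes, all higher, with a median of 0.66. In that comparison 9.68% of all genes were called, in either direction. Sdf2l1, a partner of the reticulum's HSP70, rose by 1.43 ± 0.29 (adjusted p = 0.00909), the disulfide isomerase Pdia4 by 0.84 ± 0.22 (adjusted p = 0.0295), Creld2 by 0.78 ± 0.22 (adjusted p = 0.043) and the collagen chaperone Serpinh1 by 0.71 ± 0.15 (adjusted p = 0.0116). Sdf2l1 read 0.80, 2.19 and 0.65 in injured 48 h cortex, against -0.19, -0.30 and -0.17 in the early shams and 0.77 in the 48 h sham. Hspa5, the reticulum's HSP70, differed by 0.68 ± 0.21 and was not called (adjusted p = 0.0552). Without injured 48 h replicate 2, 3 of the 14 were called (Calr, Pdia6 and Sdf2l1) and 482 of all genes in place of 1377. Sdf2l1 then differed by 0.95 (adjusted p = 0.00436), Pdia4 by 0.50 (adjusted p = 0.0701) and Hspa5 by 0.36 (adjusted p = 0.164). Against the 48 h sham, a single array, 0 of 14 were called, with a median of 0.24, where 0% of all genes were called. In the same comparison with the early shams Cdc37l1, an HSP90 co-chaperone, fell by 0.33 and the prefoldin subunit Pfdn2 fell by 0.25 (adjusted p = 0.0184 and 0.0476). The mitochondrial chaperonin gene Hspd1, named after its value was seen, was the other call (0.32 ± 0.08, adjusted p = 0.0189). Against the 48 h sham, where no gene of the array was called, none of these 3 was either. The differences were -0.00 for Cdc37l1, -0.16 for Pfdn2 and 0.23 for Hspd1 (adjusted p = 0.999, 0.78 and 0.668).

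**Figure D4:**
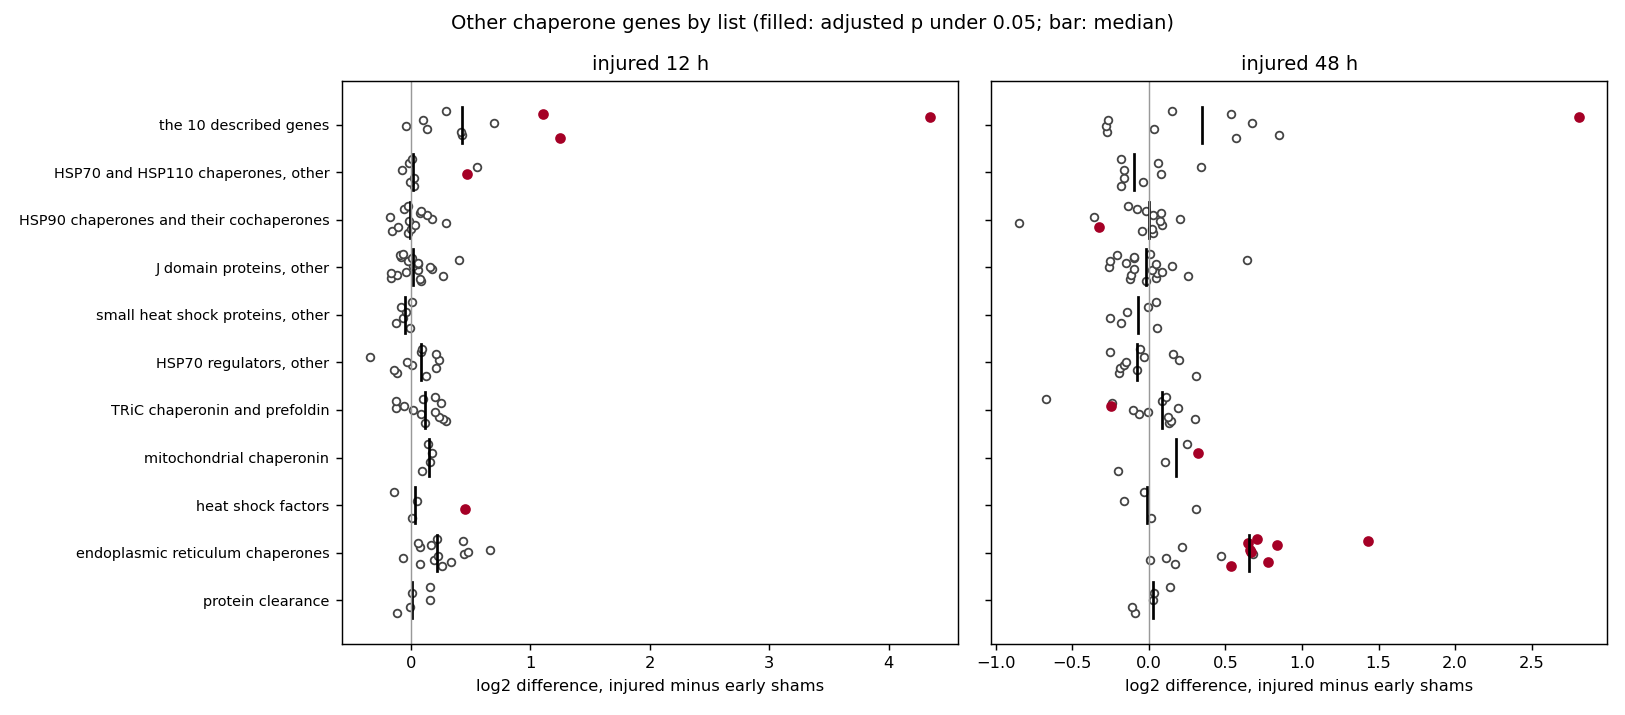
Differences from the early shams at 12 h and at 48 h (x axes, log2) for the 10 genes and for the lists of other chaperone genes, 1 point per gene, filled where the adjusted p is under 0.05, with a bar at each median. At 12 h the medians of the other lists lie between -0.05 and 0.22, against 0.43 for the 10 genes, and at 48 h the endoplasmic reticulum list has a median of 0.66. Genes and lists were chosen with earlier results of these data known, so the medians are a description.

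Markers of other cells moved at the same times. Counts of called markers below are against the early shams. In those comparisons 0.584%, 2.67%, 4.87% and 9.68% of all genes were called at 3, 6, 12 and 48 h. The mean over 9 reactive astrocyte markers (Gfap, Lcn2 and Timp1 among them) was 0.43 to 0.74 in injured 6 h arrays, 1.20 to 1.44 at 12 h and 0.04 to 1.68 at 48 h, against -1.58 to -1.21 in the early shams and -0.07 in the 48 h sham. Of these 9, 4 were called higher at 6 h, 7 at 12 h and 6 at 48 h against the early shams, and none at 3 h. In injured 48 h replicates 1, 2 and 3 that mean was 0.67, 1.68 and 0.04, and Hspb1 read 0.38, 1.64 and -0.84. The mean over 7 monocyte and macrophage markers was 0.76, 1.79 and 0.20 in the same 3 arrays, against -0.56 to -0.53 in the early shams. The mean over 6 neutrophil markers was 0.96 to 2.10 at 6 h and 1.57 to 2.13 at 12 h, against -0.52 to -0.23 in the early shams (2 and 3 of 6 called higher), and the mean over 6 microglia markers was -0.78 to -0.63 at 12 h, against 0.28 to 0.44 (4 of 6 called lower). At 6 h the microglia mean was -0.99 to -0.48. The mean over 7 endothelial markers was -0.65 to -0.59 at 6 h, -0.51 to 0.02 at 12 h and 0.17 to 0.34 at 48 h. In the early shams it was -0.0045 to 0.14 and in the 48 h sham 0.31. At 48 h the microglia mean was 1.05, 1.60 and 1.19, against 0.66 in the 48 h sham (3 of 6 called higher against the early shams), and the mean over 8 markers of meninges and fibroblasts was 0.69, 1.23 and 0.72, against 0.17 to 0.66 in the early shams and 1.21 in the 48 h sham (1 of 8 called higher against the early shams, and 3 and 4 of 8 called lower at 6 h and 12 h). The mean over 4 erythrocyte markers was 0.18 to 0.56 at 3 h and 0.38 to 0.89 at 6 h, against -0.74 to -0.27 in the early shams (1 of 4 called higher at each time). The mean over 6 choroid plexus markers was 0.18, 1.05 and 1.40 in injured 3 h replicates 1, 2 and 3, where Hspa1a read -0.05, 0.84 and 1.01, against -0.07 to -0.04 in the early shams (0 of 6 called). In injured 6 h replicates 1, 2 and 3 this mean was -0.12, 0.13 and -0.10, where Hspa1a read 1.06, 1.41 and 1.03. In injured 12 h replicate 3 it was 1.12, where Hspa1a read 0.01. The 9 general astrocyte markers averaged -0.13 to -0.04 at 12 h, against -0.01 to 0.02 in the early shams. The 9 neuron markers averaged -0.11 to -0.03, against 0.08 to 0.15. In injured 48 h replicates 1, 2 and 3 the general astrocyte mean was 0.23, 0.27 and 0.27, against 0.03 in the 48 h sham. The neuron mean in these arrays was -0.25, -0.25 and 0.03, against -0.05 in that sham. The part of cell makeup in the differences of the 10 genes was not tested.

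Among the 10 genes, Hspb1 and Hspb8 had the closest profiles over the 16 arrays (Pearson r = 0.884), followed by Bag3 with Hspb8 and with Cryab (0.801 each) and Hspb1 with Bag3 (0.78). Hspa1a was closest to Bag3 (0.678) and shared less with Hspb8 (0.349). These correlations are descriptions over arrays that share the same groups. Outside the chaperones, the 5 genes most like Hspb1 were Tnfrsf1a (0.972), Casp4 (0.96), Tmbim1 (0.959), Nek6 (0.959) and Pdpn (0.947). Those most like Hspa1a were Il7r (0.896), Nfkb2 (0.894), S1pr2 (0.892), Runx3 (0.877) and Nfkb1 (0.871). Nfkb2, a subunit of NF-kappaB, read 0.39, 0.53 and 0.26 in injured 6 h cortex and 0.07, 0.04 and 0.04 at 12 h, against -0.57, -0.61 and -0.62 in the early shams, while Tnfrsf1a, a receptor of TNF, read 0.60, 1.08 and 0.80 at 12 h, against -1.03, -0.95 and -0.84.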

How the data were processed

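RNA of 16 rat cortex samples was measured on 1-colour Affymetrix arrays. The deposited log2 values were made by the authors with RMA, per the submitters' processing notes. The log base is not given in the sources used here and was taken as 2. Each of 31099 probe sets has a median of 0 over the arrays, so the authors' table was centred. Scanner files were not used here.

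Probe sets with a single symbol were kept (20832; 436 had several, and 9780 others had none). The 20832 hold 6 of the 57 array controls, which carry a symbol, none of the 10 genes'. Gene identifiers gave current symbols for 20764 of the probe sets kept, and probe sets were averaged into 14218 genes. One limma model (3.58.1, R 4.3.3) of 6 groups, with 10 residual degrees of freedom, gave differences, SEs and moderated tests. In comparisons with the 48 h sham that lone array was taken to vary as the replicated groups do. The test was checked on simulated data, but the outcome is not given here and nothing is concluded from it about these arrays. The number of arrays limits the precision.

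The 10 genes and all lists were chosen with earlier results of these data known. Other chaperone genes named were the called ones with the largest differences, up to 4 each way per comparison of injury with sham, with Hsf1, Hspa5, Hspa8 and Hsp90aa1 in any case, and for likeness the 5 genes with the highest correlation. Alternatives were other rules for probe sets, quantile normalization, median centring, array weights, a minimum of 1 on the log2 scale, only the arrays compared, the sham of the same time alone, a block for replicate numbers and leaving out each array. Counts of other chaperones without 1 array were added after seeing the data.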

Additional observations from a re-analysis of the deposited data

Results flagged for a closer look

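Dnajb1 lay above the early sham mean in every injured 3 h and 6 h array and below it in every injured 48 h array. The 48 h group differed from the 3 h group by -0.42 ± 0.16 (group differences from sham -0.28 and 0.14, limma, adjusted p = 0.127) and from the 6 h group by -0.41 ± 0.16 (adjusted p = 0.106), so the tests of the difference itself were not passed.

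Cryab lay below the early sham mean in every injured 3 h array and above it in every injured 6 h and 12 h array. The 6 h group differed from the 3 h group by 0.66 ± 0.25 (group differences from sham 0.46 and -0.20, limma, adjusted p = 0.224) and the 12 h group by 0.63 ± 0.25 (adjusted p = 0.134), and neither passed.

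The probe set listed with both Hspa1b and Hspa1a was left out by the rule of 1 symbol and carried a signal like that of Hspa1a. It read 1.35, 1.44 and 1.34 in injured 6 h cortex, against -0.57, -0.57 and -0.80 in the early shams, a difference of 2.02 ± 0.36 (limma, adjusted p = 0.00755). At 3 h it read -0.08, 1.04 and 1.34, a difference of 1.41 ± 0.36 that was not called (adjusted p = 0.164).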

How the results depend on the processing

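Hspb1 at 6 h and 12 h and Hspa1a at 6 h kept their direction under the alternatives run, and their calls under all of them but 1. With the sham of the same time alone as the control, Hspb1 and Hspa1a were not called at 6 h (3.03, adjusted p = 0.198, and 1.60, adjusted p = 0.221), which left 0 of the 10 genes called there (70 of all genes, 379 in the main model), and 1 was called at 12 h, Hspb1 (77 of all genes, 692 in the main model). At 3 h the main count of 0 became 1 with quantile normalization and 2 with array weights (83 of all genes became 178 and 564). At 48 h against the early shams the count of 1 became 2 with only the arrays compared in the model and 2 with array weights (1377 of all genes became 585 and 2406), and for the 48 h sham against the early shams 0 became 1 with only the arrays compared (1 of all genes became 70). For 6 h against 3 h, 0 became 2 with quantile normalization, 3 with only the arrays compared and 3 with array weights (170 of all genes became 686, 551 and 1204), and for 48 h against 12 h it became 1 with quantile normalization (2180 became 1405). Leaving out each array in turn gave 0 to 1 calls at 3 h (33 to 122 of all genes), 2 to 3 at 6 h (177 to 630), 1 to 5 at 12 h (287 to 1230), 0 to 0 at 48 h against its sham (1 to 129), 1 to 3 against the early shams (482 to 2054), 0 to 3 for 48 h against 12 h (1339 to 2442), 0 to 1 for the difference of the 48 h and 12 h effects (25 to 93), and 0 elsewhere (0 to 2 of all genes for the 48 h sham, 39 to 317 for 6 h against 3 h, 1 to 45 for 12 h against 6 h). Without injured 12 h replicate 2 the calls among other chaperones at 12 h went to 0 in place of 2, and without injured 48 h replicate 2 those of endoplasmic reticulum chaperones at 48 h to 3 in place of 8. The direction turned for Cryab with the sham of the same time alone (0.077 at 3 h and -0.027 at 12 h). Leaving out 1 array at a time also turned the direction of uncalled differences. At 48 h against the early shams Cryab ran from -0.595 to 0.02 (without injured 48 h replicate 3) and Hspa4 from -0.445 to 0.01 (without replicate 1). At 12 h against 6 h Chordc1 ran from -0.19 (without injured 12 h replicate 1) to 0.49, and Bag3 from -0.36 to 0.352 and Hsph1 from -0.045 to 0.358, both lowest without injured 12 h replicate 2. At 48 h against 12 h Hsph1 ran from -0.328 to 0.075, highest without that same array. None of these values was called. Apart from what fewer arrays give, the cause was not tested.

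Of 18 correlations between same-numbered injured arrays, 3 were over 0.1 (range -0.188 to 0.257). Those of 12 h with 48 h were 0.089, 0.193 and 0.189 for replicates 1, 2 and 3. Only same-numbered arrays were compared, so whether they share animals or days of processing was not tested. A fit of the injured arrays with the replicate number as a block called 1 of the 10 genes for 48 h against 12 h, Cryab (-0.70, adjusted p = 0.0453; 1657 of all genes), and 0 for the other steps. Signal over background could not be read from centred values.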

Other observations

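Over the 16 arrays Dnajb1 and Chordc1 ran most clearly against each other among the 45 pairs of the 10 genes (Pearson r = -0.683, a description). Dnajb1 was lowest in injured 48 h cortex (-0.26 ± 0.25, centred log2 mean ± SD, n = 3), against 0.03 ± 0.08 in the early shams, while Chordc1 had its highest injured group there (0.39 ± 0.36), against -0.46 ± 0.12. The 48 h sham, a single array, stood with the injured 48 h arrays for both genes, at -0.18 for Dnajb1 and 0.49 for Chordc1.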
